A study of Homo sapiens with 6 samples.

Results

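The chromatin loops around BCR on chromosome 22 and ABL1 on chromosome 9, the 2 genes joined in the Philadelphia chromosome, were examined in HAP1, a human line whose parent, KBM-7, is a chronic myeloid leukaemia line. Loops were taken from a list of 46849 by position alone. A loop was a member when at least 1 of its anchors lay in the hg19 window from 23.0 to 24.2 Mb of chromosome 22, which holds BCR at 23.52 to 23.66 Mb, or in that from 133.0 to 134.4 Mb of chromosome 9, which holds ABL1 at 133.59 to 133.76 Mb. In all 51 loops met the rule, 30 in the BCR window and 21 in the ABL1 window. The study mapped contacts by Micro-C, in which micrococcal nuclease cuts fixed chromatin to nucleosomes before ligation. The labels describe 6 replicates in 1 group, HAP1 cells with diploid DNA content sorted after Hoechst staining, and name no other treatment. The deposited list merges them, so there was 1 value per loop, no spread between replicates and no test between samples.

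BCR encodes a protein with a kinase domain and a coiled coil through which it forms oligomers. ABL1 encodes a tyrosine kinase that shuttles between cytoplasm and nucleus. In chronic myeloid leukaemia a translocation places the 5' part of BCR before the 3' part of ABL1, and the fused protein is a tyrosine kinase that is always active. The breaks usually fall in the major breakpoint cluster region, in the 3' part of BCR, and in the long introns at the 5' end of ABL1. Both genes are read towards higher coordinates, so 5' is the lower side in each. The list holds 0 loops between different chromosomes and gives each reference position once. Contacts from fused and from any unfused copies therefore cannot be told apart, and contacts that run across the fusion were not analysed here. Where the breaks lie in HAP1 was not analysed here.

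The promoter of BCR is shown because an anchor with 3 loops covers the start of the gene, which the rule gives to the nearest 10 kb. That of ABL1 is shown beside it as the start that RefSeq lists for the partner gene. Both come from RefSeq on GRCh38.p14, another build than that of the loops, and each runs from 250 bases before to 50 after a start, on the plus strand. BCR lies there at chr22:23180259-23180558 and ABL1 at chr9:130835004-130835303. Capitals mark the GC box GGGCGG, the letters bound by Sp1-type factors, on either strand.
BCR: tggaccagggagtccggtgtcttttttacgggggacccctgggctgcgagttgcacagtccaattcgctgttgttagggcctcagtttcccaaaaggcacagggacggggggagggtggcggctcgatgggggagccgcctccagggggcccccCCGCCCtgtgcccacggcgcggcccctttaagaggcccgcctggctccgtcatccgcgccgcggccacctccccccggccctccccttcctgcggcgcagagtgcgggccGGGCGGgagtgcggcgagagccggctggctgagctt
ABL1: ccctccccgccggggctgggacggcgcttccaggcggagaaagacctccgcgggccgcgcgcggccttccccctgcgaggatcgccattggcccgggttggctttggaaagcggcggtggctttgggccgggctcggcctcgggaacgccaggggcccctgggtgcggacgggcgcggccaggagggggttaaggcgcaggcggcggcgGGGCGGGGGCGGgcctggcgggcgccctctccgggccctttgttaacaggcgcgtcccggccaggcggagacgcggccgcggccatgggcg
Each held 2 matches, and those of ABL1 follow each other without a gap. Of 35116 RefSeq promoter windows of this length, 45.0% held at least 1. The dinucleotide CG occurred 27 times in the BCR window and 42 times in the ABL1 window, against a median of 14 over all of these promoters. The window of ABL1 belongs to a start 122 kb inside the gene, so it is not the start that the rule gives as 133.59 Mb, and its place among the hg19 anchors was not analysed here. A motif match is a description of letters only.

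Each loop has an observed contact count at the pixel where its anchors cross and an expected count from a ring of pixels around it, the donut. The ratio of the observed to the donut value is the strength of a loop, and the donut value by itself gives the local depth of contacts. Donut values fall with distance. Each was therefore divided by the median of loops outside the window on the same chromosome with the same anchor width and a span within 1.2 times, provided that at least 10 such loops existed. That gave a value for 25 of the 30 BCR loops and for all 21 ABL1 loops. Each loop also has a q-value for its count against each kind of surroundings. All of these were at most 0.1 for 24 of the BCR loops and for 16 of the ABL1 loops. Loops with larger q-values were kept. Below, loops are placed by where their anchors start relative to the start of the gene in kb, negative values lying 5' of it.

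Both windows held loop numbers in the common range of their chromosomes. The BCR window had 30 loops (exact Poisson 95% interval 20.2 to 42.8) or 25.0 per Mb, against 19.4 per covered Mb on chromosome 22. These rates are not alike. A window counts each loop with 1 anchor inside, and 19 of these 30 had both, while the chromosome's rate counts each loop once. The rule thus raises the rate of a window. Over 27 stretches of the same length along that chromosome, counted as the window was, the median was 29 loops (quartiles 19 and 38.5). The ABL1 window had 21 loops (interval 13.0 to 32.1) or 15.0 per Mb, against 13.4 per covered Mb on chromosome 9. The covered length there, 140.37 Mb, includes a run of 32495 kb crossed by 0 loops, which lowers the chromosome's rate. The rates therefore do not show that the window is richer in loops than the rest of the chromosome. On chromosome 9, 99 such stretches had a median of 24 (quartiles 5.5 and 35), and 54 held more than the window's 21. Of these 99, 22 held 0 loops, which can only lower the median and the quartiles. The Poisson intervals cover counting error only. Observed counts had a median of 34 contacts (range 11 to 129) in the BCR window and 36 on chromosome 22 as a whole. They had a median of 39 (range 14 to 119) in the ABL1 window and 31 on chromosome 9.

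**Figure D1:**
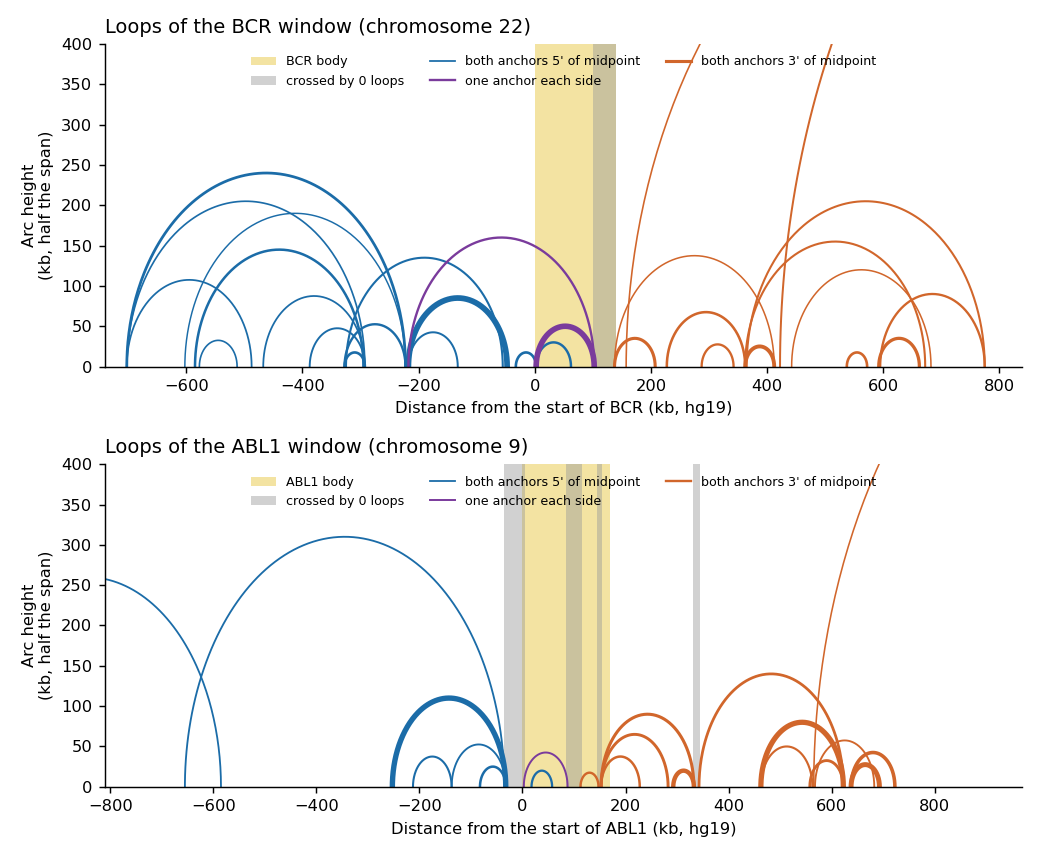
Loops of the BCR window (top, 30 loops) and the ABL1 window (bottom, 21 loops); the x axis is the distance from the gene's start in kb, each arc joins 2 anchors, its height grows with the span and its line is thicker with more observed contacts. Yellow marks the gene body and grey the stretches crossed by 0 loops; arcs that leave the panel belong to longer loops, and no arc runs over the whole of either gene.

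No loop spanned the whole of BCR, and none spanned the whole of ABL1. Of 6 loops with an anchor in the body of BCR, 2 had both anchors inside. Of 6 with an anchor in ABL1, 3 had both inside. Of all stretches as long as BCR on chromosome 22, 13.7% were spanned by 0 loops. Of those as long as ABL1 on chromosome 9, 39.1% were, or 20.6% once stretches touching an anchor-free run of 3 Mb or more were left out, a choice made after seeing the data.

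In BCR the loops of the 5' part and those of the 3' end stood apart. All of the 240 bins of 5 kb in the window were crossed by at least 1 loop except 8 bins in a row, which made up the last 40 kb of the gene (hg19, 23620001 to 23660000). On chromosome 22 as a whole 3.70% of bins were crossed by 0 loops. That stretch began at an anchor (23620001 to 23625000) that was the upper end of both of its loops, which therefore ran 5'. It ended at an anchor (23655001 to 23660000) that was the lower end of both of its loops, which ran 3'. With the bins of the anchors themselves counted as crossed, 30 kb remained. Such stretches were not rare. Of 30 on chromosome 22, 12 were at least as long.

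In ABL1 the uncrossed bins were split into several pieces. Of 280 bins in the window 19 were crossed by 0 loops, against 28.3% on chromosome 9, or 6.66% of bins outside its anchor-free run. The longest piece, 40 kb (133555001 to 133595000), lay before and at the start of the gene. Another of 30 kb (133675001 to 133705000) lay in the middle of the gene, the next, of 10 kb, (133735001 to 133745000) near its 3' end, and the last of 15 kb (133920001 to 133935000) lay beyond the gene. The first 3 pieces held 45 kb of the 170 kb body. The piece of 10 kb disappears when anchor bins are counted as crossed, since it consists of anchors alone, and 20 kb of the body then remained. On chromosome 9, 40 of 93 uncrossed stretches were at least 40 kb long. Bins in the body of BCR were crossed by 0 to 3 loops (median 2), and those in ABL1 by 0 to 3 (median 1), against chromosome medians of 4 and 3. The median of chromosome 9 counts the bins of its anchor-free run, which are crossed by 0 loops and can only lower it.

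**Figure D2:**
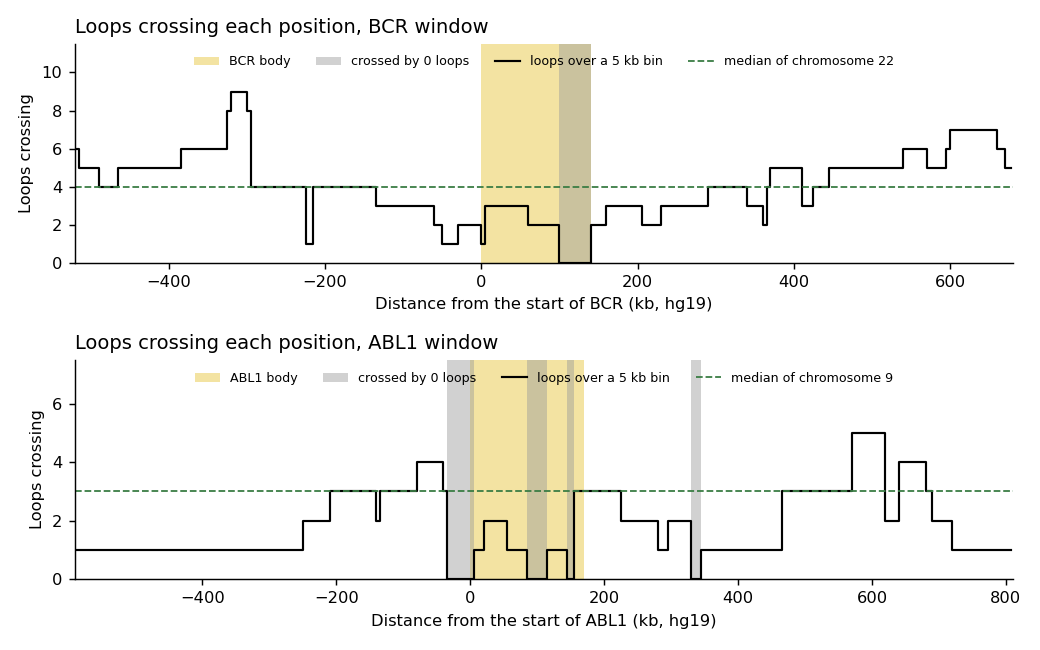
Number of loops that cross each 5 kb bin (black line) against the distance from the gene's start in kb, for the BCR window (top) and the ABL1 window (bottom); the dashed line is the chromosome's median. The line reaches 0 once near BCR, over the last 40 kb of the gene, and 4 times near ABL1, 3 of them touching the gene.

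The loops inside BCR ran between its start and the edge of the uncrossed stretch. The strongest joined the start of the gene (23520001 to 23525000) with +100 kb (23620001 to 23625000). It had 126 observed contacts (exact Poisson 95% interval 105 to 150.0) against 7.81 expected, a ratio of 16.1 and 4.57 times the median of loops of like span. By count it ranked 10 among the 661 loops of chromosome 22. From the same start a weaker loop reached +60 kb, with 38 contacts (interval 26.9 to 52.2) and a ratio of 2.39, which was 0.857 times the like-span median. A loop of 35 kb ran the other way, from the start to -35 kb, with 43 contacts in a single pixel and a ratio of 2.61. The start of BCR was thus an anchor of 3 loops, 2 of them into the gene. On chromosome 22, 163 of 687 merged anchors held as many or more.

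The anchor at +100 kb also reached far out of the gene on the 5' side. A loop of 320 kb joined it with -220 kb (23300001 to 23305000), with 35 contacts (interval 24.4 to 48.7) against 1.91 expected and a ratio of 18.4. The anchor at -220 kb was in turn the lower end of a loop to -50 kb with 129 contacts (interval 108 to 153), 7.02 expected and a ratio of 18.4. That was the highest count in the window and ranked 7 on chromosome 22. The same anchor sent another loop to -135 kb, with 25 contacts and a ratio of 3.19. In the reference order RAB36, which encodes a Rab GTPase, and GNAZ, a G protein alpha subunit gene, are the nearest protein-coding neighbours on this side. Which of them an anchor covers was not analysed here.

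Farther 5', on the side where the immunoglobulin lambda genes lie, loops met at anchors used from 1 side only. The anchor at -300 kb (23220001 to 23230000) was the upper end of 5 loops, the most of any anchor in the window, and the lower end of 0. These 5 had 17 to 43 contacts and ratios of 2.21 to 4.19. On chromosome 22, 40 of 687 merged anchors held as many or more. At -225 kb (23295001 to 23300000) lay the upper end of 3 loops, and directly beside it, at -220 kb, the lower end of the 3 loops named above. The strongest of those that came up to -225 kb spanned 480 kb from -705 kb, with 46 contacts (interval 33.7 to 61.4) against 3.94 expected and a ratio of 11.7. The remaining loops on this side had 11 to 36 contacts and ratios of 2.65 to 5.78.

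From the 3' end of BCR loops ran away from the gene. The anchor at +135 kb (23655001 to 23660000) had a loop to +205 kb with 56 contacts (interval 42.3 to 72.7) against 5.41 expected, a ratio of 10.4 and 3.54 times the like-span median. It had a second to +410 kb, with 13 contacts (interval 6.92 to 22.2) against 1.86 expected and a ratio of 6.98. The next protein-coding neighbour on this side is IGLL1, a gene for part of the surrogate light chain of B-cell precursors. Farther 3' an anchor at +360 kb (23880001 to 23890000) held 4 loops. Its loop to +410 kb had 77 contacts (interval 60.8 to 96.2) and a ratio of 6.07, the next count of the window after those of 129 and 126.

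The remaining loops 3' of BCR that stay near it were 6 in number, between +225 and +770 kb, with 13 to 60 contacts and ratios of 2.37 to 5.41. Among these 6, the loop from +225 kb ended at the anchor at +360 kb, with 41 contacts and a ratio of 5.41. The other loops of that anchor ran 3' to +670 and +770 kb, with 28 and 27 contacts and ratios of 8.52 and 8.15.

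A pair of long loops began 3' of BCR. The first joined +155 kb (23675001 to 23680000) with a place 1385 kb away (25060001 to 25065000), with 15 contacts (interval 8.40 to 24.7) against 0.0853 expected. The second, the longest of the window, joined +420 kb (23940001 to 23945000) with a place 1885 kb away (25825001 to 25830000), with 25 contacts (interval 16.2 to 36.9) against 0.105 expected. Their ratios, 176 and 237, ranked 3 and 2 on chromosome 22. The expectations are near 0, so a small change in them would change these ratios greatly. Each of the pair was merged from 2 pixels. Why contacts were counted where so few are expected was not tested. Fewer than 10 loops of like span exist on the chromosome. Against loops of like span on all chromosomes, the donut values were 0.0423 and 0.0701 times the median. Only 4 loops of chromosome 22 had a donut expectation under 0.2, and these were 2 of them.

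Loops with a ratio of at least 15 were counted in both windows. The BCR window held 5 such loops of 30, against 2.57% of loops on chromosome 22. These were the pair of long loops and the 3 loops of -220 kb to -50 kb, -220 kb to +100 kb and the gene's start to +100 kb. The ratios of the long pair rest on expectations near 0. The ABL1 window held 1 of 21, against 1.28% on chromosome 9. Relative to loops of like span, 9 of 25 BCR loops had a ratio at least 1.5 times the median (36.0%, exact 95% interval 18.0 to 57.5%), against 19.1% on chromosome 22. Only 2 had at most 1/1.5 of it, against 6.64%. In the ABL1 window 9 of 21 were at least 1.5 times (42.9%, interval 21.8 to 66.0%), against 16.4% on chromosome 9, and 0 were at most 1/1.5, against 5.19%. The median strength relative to loops of like span was also taken by side of the midpoint. At BCR it was 0.957 times for 13 loops 5' (interval 0.799 to 1.57) and 1.41 times for 10 loops 3' (0.864 to 3.07). At ABL1 it was 0.902 times for 7 loops 5' (0.773 to 3.47) and 1.51 times for 13 loops 3' (1.09 to 2.65). The intervals of the sides overlap at both genes. Loops that share an anchor are not independent, so these intervals are too narrow. The donut value is the divisor of this ratio and is also the contact depth given below. At a given count a shallow loop thus has a higher ratio. Some of the BCR loops counted here are counted again below as shallow, so the 2 shares are not separate results.

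**Figure D3:**
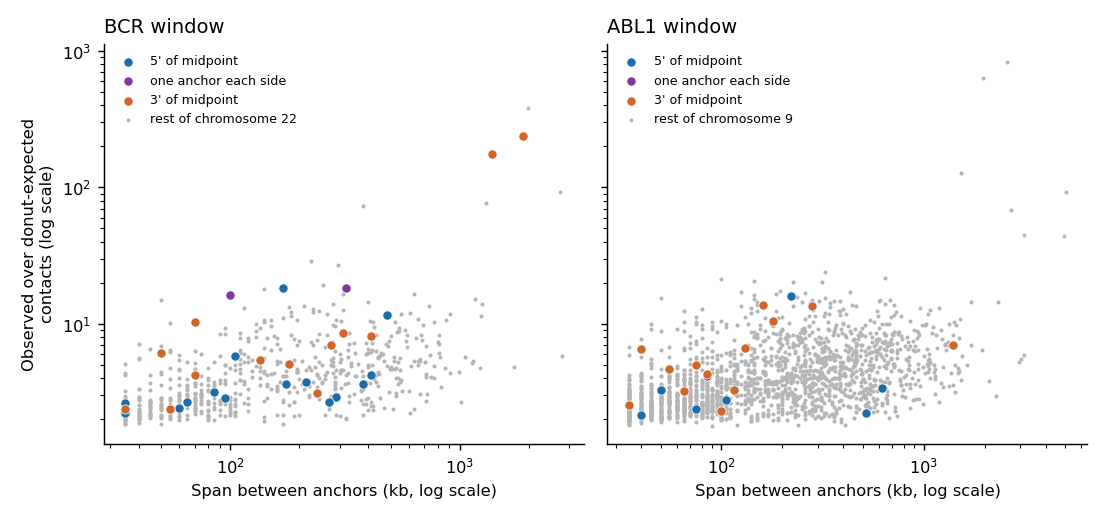
Ratio of observed to donut-expected contacts against span in kb (both log axes) for the loops of the BCR window (left) and the ABL1 window (right), coloured by their place relative to the gene's midpoint, with the other loops of the chromosome in grey. The 2 long loops 3' of BCR, with ratios of 176 and 237, lie far above the rest of the window, and the highest ratio near ABL1 is 16.0.

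Inside ABL1 the loops were short and of common strength. A loop of 85 kb joined the start of the gene (133590001 to 133595000) with +85 kb (133675001 to 133680000), with 24 contacts in a single pixel (interval 15.4 to 35.7) against 5.82 expected, a ratio of 4.13. Between its anchors lay a loop of 40 kb from +15 to +55 kb, with 33 contacts (interval 22.7 to 46.3) and a ratio of 2.13, the lowest of the window. Beyond the middle uncrossed piece a loop of 35 kb joined +110 with +145 kb, with 36 contacts (interval 25.2 to 49.8) and a ratio of 2.55. These 3 were 1.40, 0.902 and 1.09 times the median of loops of like span. None of them linked the parts of the gene on either side of the middle uncrossed piece.

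The last anchor in ABL1 was used from 1 side only. Directly before it, at +145 kb, lay the upper end of the loop from +110 kb, so loops met there from both sides. At +150 kb (133740001 to 133745000) 3 loops began, all running 3' out of the gene. They reached +225 kb with 39 contacts (interval 27.7 to 53.3), +280 kb with 51 (interval 38.0 to 67.1) and +330 kb with 55 (interval 41.4 to 71.6). Their ratios were higher the longer the loop, 4.98, 6.61 and 10.5, and were 1.71, 1.51 and 2.48 times those of loops of like span. On chromosome 9, 494 of 1937 merged anchors held 3 loops or more. The protein-coding neighbours in this direction are, in order, QRFP (a neuropeptide gene), FIBCD1 (a chitin-binding receptor gene) and LAMC3 (a laminin chain gene).

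On the 5' side of ABL1, loops stopped short of the gene. The anchor at -40 kb (133550001 to 133560000) was the upper end of 4 loops, the most of any anchor in the window, and the lower end of 0. Its strongest loop came from -255 kb (133335001 to 133340000), with 119 contacts (interval 98.6 to 142) against 7.43 expected. The ratio of 16.0 was the highest of the window and 3.47 times the like-span median. The others came from -660, -140 and -85 kb, with 21, 22 and 40 contacts and ratios of 3.40, 2.78 and 3.26. For those from -660 and -140 kb the largest q-value was 0.242 and 0.348, and the anchor's place as the most used rests on them. EXOSC2, a subunit gene of the RNA exosome, and PRDM12, a gene for a zinc finger regulator of sensory neurons, are the nearest neighbours there.

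Farther 3' the ABL1 window held its other strong loops. A loop of 160 kb from +460 to +620 kb had 116 contacts (interval 95.9 to 139) and a ratio of 13.6, and one of 280 kb from +340 to +620 kb had 46 contacts (interval 33.7 to 61.4) and a ratio of 13.6. A loop from +635 to +690 kb had 107 contacts (interval 87.7 to 129) but 23.0 expected, for a ratio of 4.65. The longest loop spanned 1390 kb from +560 kb, with 14 contacts in a single pixel against 2.01 expected. The loop with the next count, 92 contacts, joined +290 with +330 kb at a ratio of 6.54. The remaining 6 loops of the window, on either side, had 20 to 69 contacts and ratios of 2.21 to 4.26. NUP214, a nuclear pore gene that is itself a fusion partner in leukaemia, is the fifth protein-coding gene 3' of ABL1.

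**Figure D4:**
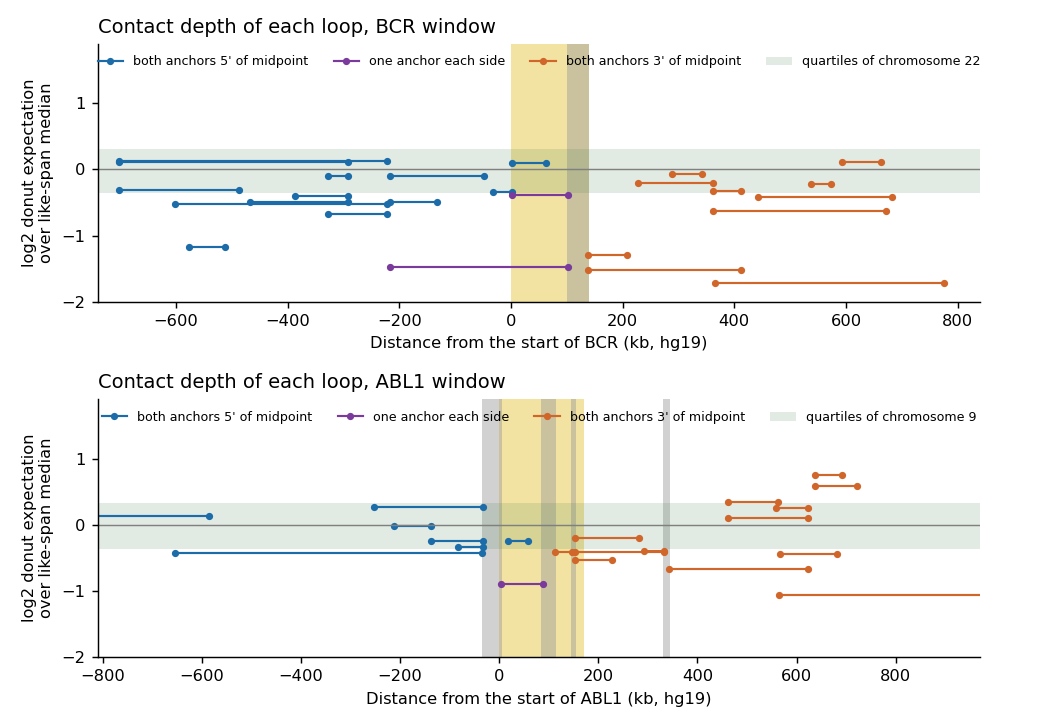
Contact depth of each loop, as the log2 of its donut expectation over the median of loops of like span on its chromosome (y axis), drawn from anchor to anchor against the distance from the gene's start in kb, for 25 loops of the BCR window (top) and 21 of the ABL1 window (bottom). Yellow is the gene body, grey the stretches crossed by 0 loops and green the quartiles of the chromosome; the 5' and 3' loops overlap in both windows, and the lowest loops at BCR include 3 that end at the grey stretch.

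Contact depth was below that of loops of like span in the median on both sides of the middle of BCR, and how far the sides lay apart changed with the loops and the expectation used. Loops with both anchors 5' of the gene's midpoint had a median of -0.35 on the log2 scale (exact 95% interval -0.52 to 0.10, 13 loops), that is, 0.786 times the depth of loops of like span. Those with both anchors 3' of it had a median of -0.37 (interval -1.52 to -0.07, 10 loops), or 0.774 times. The single values ran from -1.18 to 0.13 on the 5' side and from -1.72 to 0.11 on the 3' side, and the sides overlap. Against loops of like span on all chromosomes, which gave a value for every loop, the medians were -0.31 for 15 loops on the 5' side and -0.63 for 13 on the 3' side. The 3 loops that this added on the 3' side were all shallow, the pair of long loops named above and the loop from +590 to +770 kb, at 0.399 times. With the horizontal in place of the donut expectation the medians were -0.11 on the 5' side and -0.56 on the 3' side, and with the observed count -0.37 on the 5' side and -0.11 on the 3' side. All of chromosome 22 had a median of -0.02, with quartiles of -0.35 and 0.31. In the BCR window 0 of 25 loops were at least 1.5 times as deep as loops of like span (exact 95% interval 0 to 13.7%), against 11.1% on chromosome 22. At the other end 7 of 25 were at most 1/1.5 as deep (28.0%, interval 12.1 to 49.4%), against 11.1% on the chromosome. Because loops that share an anchor are not independent, the intervals of these shares and of the depth medians at both genes are too narrow.

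Around ABL1 the values of contact depth on the 2 sides of the midpoint also overlapped. The median was -0.24 on the log2 scale for 7 loops on the 5' side (interval -0.42 to 0.27), or 0.845 times loops of like span. It was -0.39 for 13 loops on the 3' side (interval -0.54 to 0.34), or 0.762 times. Single values ran from -0.42 to 0.27 on the 5' side and from -1.07 to 0.75 on the 3' side, which take in all of the 5' values. Chromosome 9 had quartiles of -0.37 and 0.33. Of 21 loops 1 was at least 1.5 times as deep as loops of like span, against 11.6% on chromosome 9, and 3 were at most 1/1.5 as deep, against 15.0%. The deep one was the loop from +635 to +690 kb, at 1.69 times.

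The side medians do not show that depth is equal on both sides, since their intervals span a wide range. On the 3' side of ABL1 the sign depends on which loops are counted. The 9 loops that begin beyond the end of the gene had a median of 0.11, and the 3 with 1 anchor in the body one of -0.42. With the observed count in place of the donut value the 13 loops of the 3' side had a median of 0.39.

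Of the 7 BCR loops at most 1/1.5 as deep as loops of like span, 3 ended at an edge of the uncrossed stretch. Among all 4 loops that end at its edges, the loop from -220 to +100 kb had 0.358 times the donut value of loops of like span and the loop from the gene's start to +100 kb had 0.767 times. On the other edge, the loop from +135 to +205 kb had 0.408 times and that from +135 to +410 kb 0.348 times. The other 4 of the 7 lay elsewhere: at -580 to -515 kb (0.441 times), -330 to -225 kb (0.629 times), +360 to +670 kb (0.645 times) and +360 to +770 kb (0.304 times). Loops that share an edge also share part of their surroundings. That the low values lie beside this edge was noticed after the values had been seen.

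The 2 loops that end at +100 kb had low donut values against their own lower-left corner, the surroundings that lie between the anchors. They share that anchor, and the donut values are those that gave their depth, so the quotient is not a separate result. The loop from -220 kb had a donut value of 1.91 against 2.93 in the lower-left, a quotient of 0.652. The loop from the gene's start had 7.81 against 11.3, a quotient of 0.693. They were the only loops of the 30 at or below 0.75 (6.67%), against 3.48% on chromosome 22, whose median was 0.983. With 2 loops that share an anchor, this share cannot be told apart from that of the chromosome. The loops that run 3' from +135 kb had quotients of 0.826 and 0.775. In the ABL1 window 1 loop of 21 was at or below 0.75 (4.76%), against 2.18% on chromosome 9. It was the loop from the start of the gene to +85 kb, at the edge of the middle uncrossed piece, with 5.82 against 9.14 (0.636), and its depth was 0.538 times that of loops of like span. This quotient was added after the values had been seen, and what sets it was not tested.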

How the data were processed

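Per the labels' protocols, fixed HAP1 chromatin was digested with micrococcal nuclease and ligated. The submitters' processing notes name BWA and hg19 without a role, and the file header names juicer_tools 1.22.01. No label or header states the caller's settings, the depths or how the 6 replicates were pooled. For each loop the authors deposited the observed contact count (raw counts), the count of merged pixels, 4 other values (expected contacts from the donut, lower-left, horizontal and vertical surroundings) and 4 q-values.

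Windows, gene bodies and midpoints (23.59 and 133.675 Mb) come from the rule for members. Members and measures were chosen with earlier results of these data known. Loops named in the text have an anchor in either gene, are among the 3 highest of a window by count or by ratio, are its longest, or meet at its most used anchor; others were chosen after their values were seen. A loop crosses a 5 kb bin that lies between its anchors. Intervals (95%) are exact Poisson for counts, exact binomial for shares and from order statistics for medians. There is 1 merged list, so no test was run. Gene order and promoters are from RefSeq GRCh38.p14. Values were computed in Python 3.11.15 (pandas 2.3.3, numpy 2.4.6, scipy 1.17.1), with matplotlib 3.10.9 for plots, by functions tested on simulated data. Alternatives covered the kind of expectation, the loops of comparison, anchor width, side, q-value, merged pixels and fold.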

Additional observations from a re-analysis of the deposited data

How the results depend on the processing

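Of 77 alternative values for 18 results, 71 lay inside the 95% interval of the main value or, for counts and lengths, within 1.5 times it. That share does not measure stability, since some values could not move. Leaving loops out cannot raise the 0 loops that span a gene, and a fold of 2 cannot raise the 0 deep BCR loops. The 13 valued loops 5' of BCR are all of 5 kb. Many intervals are also wide: 0.11 for the 3' loops of ABL1 split at the gene's end counted as inside. With both anchors required in the window, the BCR window held 19 loops instead of 30. From 10 kb loops alone, the depth 3' of the midpoint was -1.72 (log2) at BCR and -1.07 at ABL1, each from 1 loop, and no value could be had 5' of BCR. With the observed count for the donut value, depth 3' of ABL1 was 0.39 instead of -0.39. With a fold of 2, 0 loops of the ABL1 window were called deeper (0%), and with comparison loops of all chromosomes or the lower-left expectation 2 were, instead of 1. With anchor bins counted as crossed, chosen after seeing the data, 20 kb of ABL1 was uncrossed instead of 45. The cause of the other changes was not tested; those from 10 kb loops rest on fewer loops. With a fold of 2, 5 of 25 BCR loops were shallow (20.0%), against 3.16% on chromosome 22. No paired analysis was possible because the list merges the replicates, and leaving one out was not possible for the same reason. With a median of 34 and 39 contacts a loop, depth limits what single loops can show, as their Poisson intervals give.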
